A study of Homo sapiens with 6 samples.

Results

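Protein kinase A (PKA) and its peptide inhibitors are represented here by 9 genes. Of these, 2 encode catalytic subunits (PRKACA and PRKACB), 4 regulatory subunits (PRKAR1A, PRKAR1B, PRKAR2A and PRKAR2B) and 3 the inhibitors (PKIA, PKIB and PKIG). The rows were taken from the deposited table by gene name, each name matched 1 row, and the members make up 9 of its 19823 genes. Poly(A) RNA-seq was performed on 6 samples of iNeurons, which are glutamatergic neurons made from WTc11, a line of human induced pluripotent stem cells, 3 untreated and 3 given isoproterenol. Every sample, the untreated ones included, carried the RBM12 knockdown, so the members were compared between treated and untreated RBM12-depleted neurons, and no sample without the knockdown was analysed here. According to the methods, the line is 1 clone in which doxycycline switches on the neuronal factor NGN2 and which also expresses dCas9-KRAB, the CRISPR interference (CRISPRi) repressor. These samples came from the parental line. The labels give neither the dose nor the duration of isoproterenol.

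PKA is the main intracellular receptor of cyclic AMP (cAMP). In resting cells, a dimer of regulatory subunits holds a pair of catalytic subunits inactive, and cAMP binding to the regulatory subunits frees the kinase activity. Isoproterenol is an agonist that raises cAMP, the released catalytic subunits phosphorylate targets that include the transcription factor CREB, and the inhibitor peptides block free catalytic subunits and carry them out of the nucleus. Type I regulatory subunits are mostly cytosolic, whereas type II subunits are mostly held at membranes and the cytoskeleton by A-kinase anchoring proteins (AKAPs), and in neurons PRKACB, PRKAR1B and PRKAR2B are known as prominent forms.

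Sequences shared by the samples and the members are shown first, because the guide defines the background of all 6 samples and CREB acts through short promoter motifs. The RBM12 guide listed for CRISPRi matched GRCh38 from its second base on. The match lay at chr20:35664865-35664883 on the minus strand, 74 bases inside the start of RBM12, and was the 1 match on that chromosome. The matched bases are given in lower case and the adjacent PAM in capitals.
RBM12 guide match with PAM: aggaggtggtggctgcgttGGG

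Promoter windows from RefSeq (GRCh38.p14), reaching from 250 bases before to 50 bases after a start site, were found for 8 of the 9 members, 25 windows in all. They were searched on both strands for the full cAMP response element (CRE), TGACGTCA, and for its half-site, TGACG or CGTCA, which the full element contains. The full CRE was in 649 of 35116 windows of all genes (1.85%) and in 2 of the 25 member windows (8%), both of them overlapping windows of PRKAR1A that hold the same site. A half-site was in 24.6% of all windows and in 11 of the 25 member windows (44%), which belonged to 6 of the 8 genes, and PKIG and PRKAR2B had none in these windows. Windows of 1 gene can overlap, so they are not independent. The sites below show the full CRE of PRKAR1A and 1 half-site each for the other 5 genes, with the motif in capitals and each sequence read along the strand of its gene. They lie at chr17:68512371-68512398 (plus strand), chr1:84077939-84077963 (plus), chr19:14117752-14117776 (minus), chr7:713093-713117 (minus), chr3:48847864-48847888 (minus) and chr6:122471854-122471878 (plus), in the order listed.
PRKAR1A: cgaggcgcatTGACGTCAgtagccgaac
PRKACB: cgggcctgcgCGTCActtccggcgc
PRKACA: gctgcgggggCGTCAcagacagcgg
PRKAR1B: gggttaggacCGTCAccaagaggct
PRKAR2A: cggtggcgtgCGTCAcaaccaggac
PKIB: ctcagcctcgCGTCActtccttcca
The PRKAR1A element began 49 bases before 1 annotated start and 2 bases after another. The half-sites of PRKACA and PRKAR2A began 4 bases before a start, that of PKIB 57 and that of PRKACB 130 bases before. A match is a description of the sequence and was not tested as a binding site.

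All values are normalized counts, that is, reads divided by a size factor per sample, and a log2 fold change above 0 means a higher level with isoproterenol. Between 18116816 and 21488793 reads per sample were recovered from the table. The targeted gene, RBM12, stood at 244, 279 and 267 in untreated replicates 1 to 3 and at 195, 238 and 233 with isoproterenol. Each treated sample lay below each untreated one, which 6.19% of all genes tested did. The log2 fold change of RBM12 was -0.25, with a limma adjusted p of 0.607, and 0.131 with the replicate block described below. It was therefore not called, but its level may not have been the same in both groups. Without a control guide, the extent of its depletion was not measurable, and 575 of its exonic bases are shared with CPNE1. The neuronal identity of the cultures was checked on 8 neuronal markers, not all of them specific to glutamatergic neurons. All were above 0, and their summed counts ran from 37324 to 40227 per sample. The lowest of them, TUBB3, stood at 69.2 to 94.4 counts per sample and shares 1584 exonic bases with another annotated gene. The summed GABAergic markers reached 55.3 to 79.0, the 2 astrocyte markers in the table (AQP4 and S100B) 134 to 175, and the 3 oligodendrocyte markers 1040 to 1174, most of it MBP. The summed pluripotency markers POU5F1 and LIN28A reached 14.4 to 28.8 and the proliferation marker CCNB1 112 to 147. The other listed pluripotency, proliferation, astrocyte and oligodendrocyte markers and all microglia markers were not analysed here. As a check of the treatment, 9 immediate early genes, which neurons switch on after stimulation, were examined. The list was chosen with earlier results of these data known. Each was higher with isoproterenol in all 3 same-numbered pairs (18.5% of all genes were), with a median log2 fold change of 1.13. In the limma fits described next, 1 of these 9 passed an adjusted p of 0.05 without the replicate block (0.0165% of all genes). With the block 8 passed, all of them higher, where 2.82% of all genes were called higher.

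Replicates 1 to 3 of both groups varied together, so each comparison is given from limma without and with the replicate number as a block. The labels do not say that samples came from separate cultures, and p-values therefore rest only on the spread between these samples. In limma the spread of each gene is also pulled towards that of genes of similar level. In bulk RNA, a lower level can reflect fewer cells of a type or less RNA per cell, and these cannot be told apart.

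The isoproterenol differences of the 9 members were small, from -7.33% for PRKAR2A to 5.01% for PRKACA. Without the block none passed an adjusted p of 0.05 (Benjamini-Hochberg over 18130 genes), where 3 genes passed overall (0.0165%), and without the block edgeR (0.0165% of genes called) and DESeq2 (0.126%) also called none of them. At an unadjusted p under 0.05, 1 of the 9 passed, against 7.68% of all genes. With the block, 1 of the 9 fell, PRKAR2A, and none rose, where 2.06% of all genes fell and 2.82% rose. At an unadjusted p under 0.05 with the block, 5 of the 9 passed (16.2% of all genes), namely PRKACA, PRKAR1B, PRKAR2A, PRKAR2B and PKIA. The median log2 fold change of the members was -0.023 (range -0.11 to 0.071), against 0.0015 over all genes tested, and the median absolute change was 0.042, against 0.087 over all genes. The members are more deeply counted than most genes, with a counting error of 0.817% to 3.77% of the level per sample against a median of 6.08%.

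**Figure D1:**
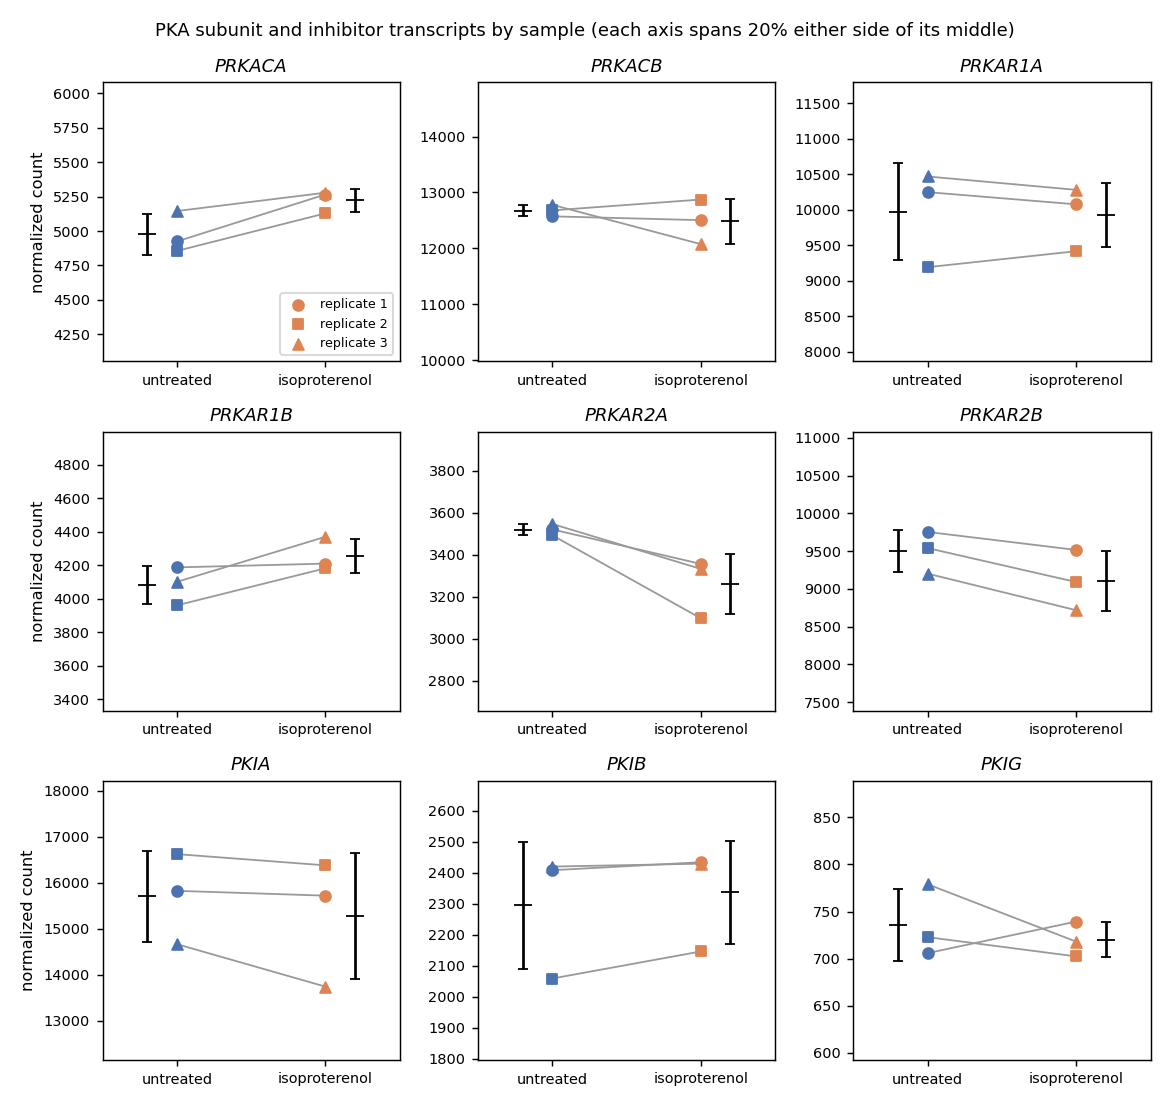
Normalized counts of the 9 PKA genes in the 3 untreated and 3 isoproterenol samples, 1 panel a gene, with points joined by replicate number and a linear axis of its own in each panel. PRKAR2A is the panel in which the 2 groups do not overlap, with untreated samples at 3493 to 3547 and isoproterenol samples at 3098 to 3357.

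Of the catalytic genes, PRKACA encodes the widely expressed Cα subunit and PRKACB the Cβ subunit. PRKACA (chr19:14091688-14118084, minus strand) stood at 4924, 4856 and 5145 counts in untreated replicates 1 to 3 and at 5266, 5129 and 5279 with isoproterenol. Isoproterenol replicate 2 lay below untreated replicate 3, so the groups overlapped, although PRKACA was higher in each of the 3 same-numbered pairs, by 0.097, 0.079 and 0.037 on the log2 scale. The mean went from 4975 ± 151 to 5224 ± 83.1 (SD, n = 3), 5.01% more, with a log2 fold change of 0.071 (SE 0.041, limma adjusted p = 0.716). With the block its interval excluded 0, at 0.018 to 0.124, but the adjusted p was 0.117.

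PRKACB (chr1:84078062-84238498, plus strand) stood at 12572, 12679 and 12779 counts in untreated neurons and at 12504, 12873 and 12075 with isoproterenol. The highest and the lowest of the 6 values were both isoproterenol samples, and the 3 pairs did not share a direction. Its log2 fold change was -0.023 (SE 0.036, limma adjusted p = 0.923, and 0.668 with the block), and the 95% interval with the block ran from -0.064 to 0.019. For neither catalytic gene did limma call a change, and for both the interval without the block stayed within -0.097 to 0.157.

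The regulatory genes fall into type I (PRKAR1A and PRKAR1B, encoding RIα and RIβ) and type II (PRKAR2A and PRKAR2B, encoding RIIα and RIIβ). PRKAR1A (chr17:68511780-68551319, plus strand), the broadly expressed form and the gene with the full CRE, stood at 10250, 9192 and 10471 counts in untreated neurons and at 10078, 9418 and 10282 with isoproterenol. Replicate 2 was the low sample in both groups. The mean was 9971 ± 683 untreated and 9926 ± 452 with isoproterenol (SD, n = 3), and the log2 fold change of -0.0052 (SE 0.048) had an interval of -0.107 to 0.096, or -0.049 to 0.038 with the block. The limma adjusted p was 0.988, and 0.947 with the block.

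PRKAR1B (chr7:549197-727650, minus strand), a form best known from neurons, stood at 4187, 3960 and 4101 counts untreated and at 4210, 4182 and 4370 with isoproterenol. Isoproterenol replicate 2 lay just under untreated replicate 1, so the groups overlapped, while each pair was higher with isoproterenol, by 0.0078, 0.078 and 0.092 on the log2 scale. The log2 fold change was 0.059 (SE 0.043), 4.19% more, with limma adjusted p-values of 0.782 and, with the block, 0.277. PRKAR1B shares 385 exonic bases on the other strand with DNAAF5, which stood at 122 to 159 counts per sample.

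PRKAR2A (chr3:48744597-48847874, minus strand) was the 1 member called in any fit. It stood at 3521, 3493 and 3547 counts in untreated replicates 1 to 3 and at 3357, 3098 and 3333 with isoproterenol. The 3 isoproterenol samples all lay below the 3 untreated samples, which 6.19% of all genes tested did (12.9% in either direction), and it was the 1 member whose groups did not overlap. The untreated samples were nearly level, with a coefficient of variation of 0.768%, below the counting error of 1.74%, and isoproterenol replicate 2 was the lowest of the 6. The mean went from 3520 ± 27.0 to 3262 ± 143 (SD, n = 3), a change of -7.33%, and the log2 fold change was -0.11 (SE 0.045, 95% interval -0.205 to -0.016).

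Without the block the unadjusted p of PRKAR2A was 0.0243 and its limma adjusted p 0.595. With the block, the SE was 0.031, the interval -0.172 to -0.050 and the limma adjusted p 0.0157, and edgeR with the block, which called 2.47% of all genes lower, gave an adjusted p of 0.00709. DESeq2 did not call it, with an adjusted p of 0.954 without and 0.480 with the block, where it called 1.18% of genes. The call in limma also depended on the pairs: in the pairs the log2 difference was -0.069, -0.173 and -0.090, and without pair 2 it was -0.079 with a blocked adjusted p of 0.299. Without pair 1 the blocked adjusted p was 0.0248 and without pair 3 it was 0.0661. PRKAR2A shares 303 exonic bases with PRKAR2A-AS1 on the other strand, a gene at 21.9 to 46.4 counts per sample, and the strand setting of the counting is not stated.

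PRKAR2B (chr7:107044705-107161811, plus strand), the type II form prominent in brain, stood at 9754, 9540 and 9202 counts untreated and at 9515, 9090 and 8717 with isoproterenol. The groups overlapped, and in both groups the level was highest in replicate 1 and lowest in replicate 3, while each pair was lower with isoproterenol, with log2 differences of -0.036, -0.070 and -0.078. The mean went from 9498 ± 278 to 9107 ± 399 (SD, n = 3), a change of -4.12%, and the log2 fold change was -0.061 (SE 0.040). The limma adjusted p was 0.763, and 0.0992 with the block, where the interval was -0.105 to -0.017. PRKAR2B was not called, and no annotated gene shares exonic bases with it. Other members do overlap annotated genes on the same strand, by 546 exonic bases in PRKAR1A, 454 in PKIB and 153 in PRKACA.

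**Figure D2:**
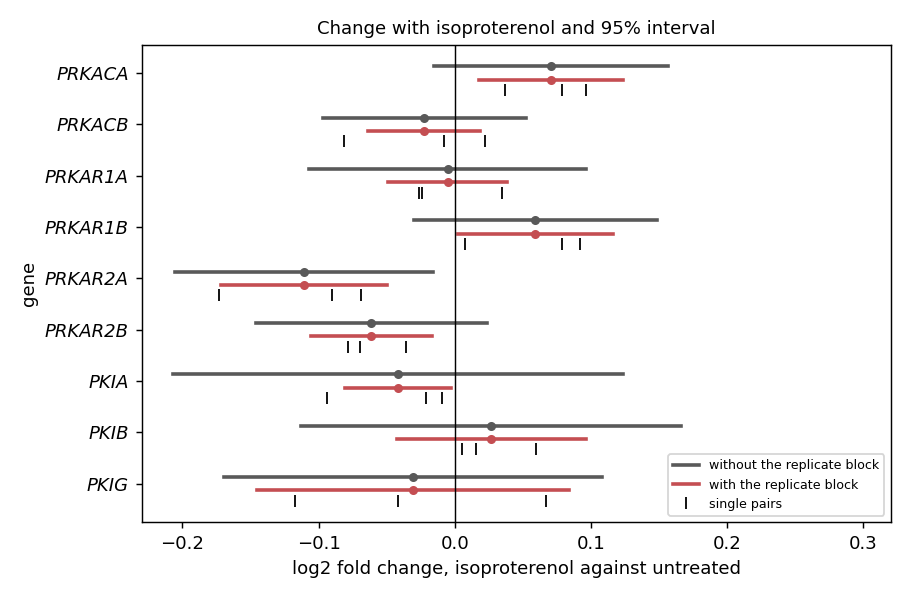
Log2 fold change of each PKA gene with its 95% interval from limma, without the replicate block (grey) and with it (red), and the 3 single pairs as black ticks. The intervals of PRKACA, PRKAR1B, PRKAR2A, PRKAR2B and PKIA lie on 1 side of 0 with the block, and without it only that of PRKAR2A does.

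The inhibitor genes encode small heat-stable peptides that bind free catalytic subunits. PKIA, whose product is the inhibitor form enriched in brain and muscle, stood at 15825, 16624 and 14665 counts untreated and at 15720, 16380 and 13740 with isoproterenol. Replicate 2 was high and replicate 3 low in both groups. The mean went from 15704 ± 985 to 15280 ± 1374 (SD, n = 3), and the log2 fold change was -0.042, with an SE of 0.071 without the block and of 0.019 with it. The limma adjusted p was 0.930, and 0.256 with the block, so the 3.66-fold smaller SE did not bring a call.

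PKIB (chr6:122471917-122726373, plus strand) stood at 2408, 2059 and 2420 counts untreated and at 2434, 2146 and 2429 with isoproterenol, with replicate 2 low in both groups and the pairs higher by 0.015, 0.060 and 0.0056. Its log2 fold change was 0.027 (SE 0.066, limma adjusted p = 0.954, and 0.788 with the block). PKIG (chr20:44531785-44624247, plus strand) was the member with the fewest reads, at 706, 723 and 779 counts untreated and 739, 702 and 718 with isoproterenol. Its pairs did not share a direction, and the log2 fold change was -0.031 (SE 0.066, limma adjusted p = 0.944, and 0.865 with the block). The interval of PKIG with the block, -0.145 to 0.084, was the widest of the 9 members in that fit, and PKIG shares 853 exonic bases on the other strand with ADA, which had a mean of 4.81 counts.

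In the members, the spread between the pairs was set against the isoproterenol difference. Samples of the same number did not deviate alike in every member. For PRKACB, replicate 3 was the highest untreated and the lowest isoproterenol sample. For PKIG, replicate 3 was the highest untreated sample and replicate 1 the highest treated one. A range between pair means can arise without shared deviations, and its ratio grows where the difference is near 0. The range between the 3 pair means, on the log2 scale, was larger than the size of the isoproterenol difference in 6 of the 9 genes, by 30.03 times in PRKAR1A, 7.64 times in PKIB and 5.22 times in PKIA. PRKAR2A had the smallest such ratio (0.576), followed by PRKACA (0.885) and PRKAR1B (0.958). The pairs did not move all members alike: pair 2 was the lowest of the 3 for PRKACA, PRKAR1A, PRKAR1B, PRKAR2A, PKIB and PKIG, and the highest for PKIA and PRKACB. In 6 of the 9 members the 3 pairs shared a direction, which 36.1% of all genes did, with 3 higher (18.5% of all genes) and 3 lower (17.6%).

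Levels can be compared between genes only per length, here as normalized counts per kilobase of exonic sequence. On this scale PKIA was the most abundant member (mean of the 6 samples 3859), followed by PRKACB (1838), PRKAR1B (836), PRKAR1A (791), PRKAR2B (739), PRKACA (696), PKIB (675), PRKAR2A (390) and PKIG (295). PKIA and PRKACB stood clear of every other member in all samples, as did PRKAR2A and PKIG at the low end. Neighbours among the middle 5 overlapped: PRKAR1B with PRKAR1A, PRKAR1A with PRKAR2B, PRKAR2B with PRKACA, and PRKACA with PKIB. Among 18064 tested genes with a length, PKIA lay at the 99.5th percentile, PRKACB at the 98.5th and PKIG, the lowest, at the 83.5th. The middle order depended on the length used, since PRKAR2B has 12581 exonic bases but a longest transcript of 4353. With the longest transcript PRKAR2B came next after PRKACB, and with the median coding transcript PRKACA did, whereas PKIA and PRKACB remained first and second and PKIG last with each of the 3 lengths.

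The make-up of each role was described per sample, with no test. PRKACB supplied 73.2% ± 0.493 of the catalytic counts per kilobase in untreated neurons and 71.9% ± 0.941 with isoproterenol (SD, n = 3), and the groups overlapped. PRKAR2A supplied 14.3%, 15.0% and 14.6% of the regulatory counts per kilobase untreated and 13.8%, 13.4% and 13.8% with isoproterenol, so its share was lower in each treated sample. PRKAR1B supplied 29.6%, 29.6% and 29.4% untreated and 30.3%, 31.5% and 31.6% with isoproterenol, and its share was higher in each treated sample. Neither of these shares overlapped between the groups under any of the 3 lengths, but the lengths reweight the same counts and are not separate support. Shares within a role add up to the whole, so a fall in 1 gene raises the shares of the others. The counts of PRKAR1B itself overlapped between the groups. How often such shares differ among other genes was not examined. The size of the PRKAR2A share depended on the length, with untreated means of 14.6% for exonic length, 9.58% for the longest transcript and 22.1% for the median coding length. The share of type I genes was 58.1% ± 1.23 untreated and 59.9% ± 1.11 with isoproterenol, and these groups overlapped except with the median coding length.

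PKIA supplied 80.1% ± 2.06 of the inhibitor counts per kilobase untreated and 79.6% ± 2.18 with isoproterenol. The ratio of catalytic to regulatory counts per kilobase was 0.885, 0.937 and 0.920 untreated and 0.913, 0.968 and 0.897 with isoproterenol, with overlapping groups and means of 0.914 ± 0.026 and 0.926 ± 0.037. The ratio of inhibitor to catalytic counts was 1.96, 2.001 and 1.82 untreated and 1.93, 1.93 and 1.78 with isoproterenol, again overlapping. Both ratios moved with the length used. With the longest transcript the first was 0.716 and 0.728 (untreated and isoproterenol means) and the second 1.39 and 1.36. With the median coding length the first was 0.971 and 0.997 and the second 1.05 and 1.02, and replicate 3 of both groups then lay below 1 in the second, at 0.989 and 0.959. They describe RNA, and subunit proteins were not measured in these samples.

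**Figure D3:**
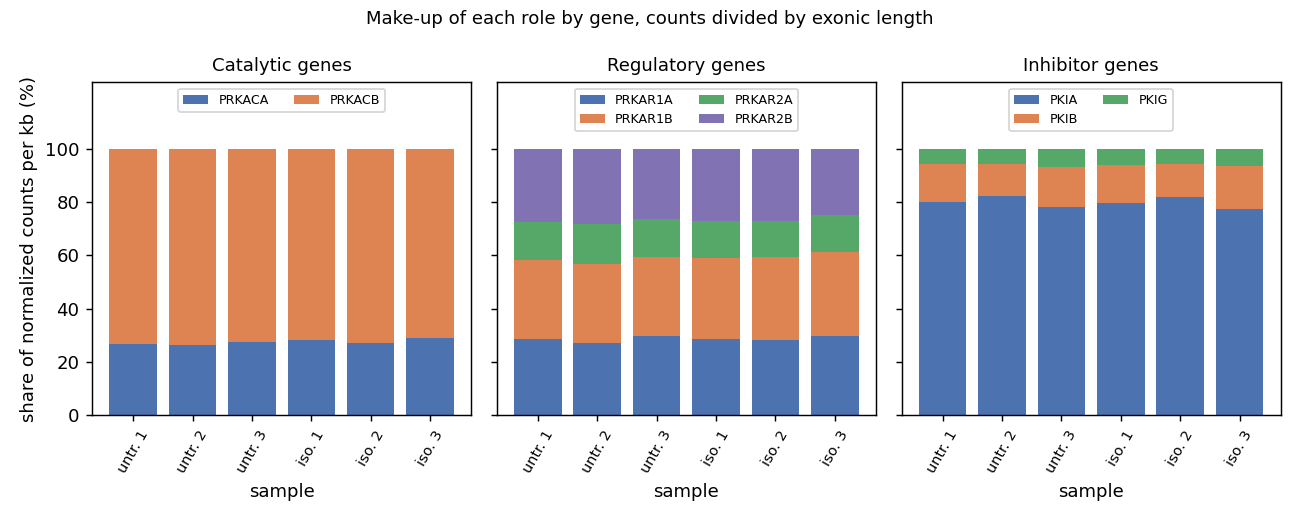
Share of each gene in the catalytic, regulatory and inhibitor counts per kilobase of exonic length (percent, bars stacked to 100) in the 6 samples. PRKACB takes 71.0% to 73.7% of the catalytic bar and PKIA 77.4% to 82.3% of the inhibitor bar, and the PRKAR2A band is thinner in the isoproterenol samples.

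Partners of the kinase were examined from lists. AKAPs bind the dimer of regulatory subunits and place PKA near its substrates. Of 27 listed AKAPs, 26 were tested and AKAP4 was not analysed here. Without the block none was called (0.0165% of all genes were), and the unadjusted p of 2 was under 0.05 (7.68% of all genes). With the block, 1 of the 26 rose, where 2.82% of all genes did, and none fell. Their median log2 fold change was 0.044, against 0.0015 over all genes tested, and 18 of the 26 were higher. In 5 of the 26 the groups did not overlap, where 12.9% of all genes had groups that did not.

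The AKAP that rose was AKAP6 (chr14:32329298-32837684, plus strand), an anchor of PKA at the nuclear envelope. It stood at 6005, 5444 and 5403 counts untreated and at 6816, 6057 and 6247 with isoproterenol, and each treated sample was above each untreated one. The log2 fold change was 0.18 (SE 0.050), 13.5% more, with a limma adjusted p of 0.303 without and 3.43e-08 with the block. With the block, edgeR gave an adjusted p of 1.55e-09 and DESeq2 one of 0.00101. Higher values were seen in the 3 pairs, at 0.183, 0.154 and 0.209.

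Of 12 other proteins that bind cAMP or cyclic nucleotides directly, 10 were tested (CNGA1 and CNGB3 were not analysed here), and 5 of them were higher. Their median log2 fold change was -0.024, and neither fit called any of them. The unadjusted p of 1 of the 10 was under 0.05 without the block (7.68% of all genes) and that of 2 with it (16.2% of all genes).

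PKA also acts through small phosphatase inhibitors and related phosphoproteins, which include phosphorylation targets of the kinase. All 6 listed were tested, their median log2 fold change was 0.092, and with the block 2 of the 6 rose, PPP1R1A and ARPP19, where 2.82% of all genes did. PPP1R1A (chr12:54575387-54588659, minus strand), inhibitor-1 of protein phosphatase 1, stood at 4517, 4005 and 4446 counts untreated and at 5130, 4281 and 5064 with isoproterenol. The groups overlapped through isoproterenol replicate 2, and each pair was higher. Its log2 fold change was 0.16 (limma adjusted p = 0.647, and 2.32e-05 with the block). On the other strand, PDE1B shares 443 exonic bases with PPP1R1A, and the level of PDE1B was not examined here. ARPP19 (chr15:52547045-52569883, minus strand), a relative of ENSA, stood at 7749, 7107 and 7598 untreated and at 8728, 7937 and 8198 with isoproterenol. Its groups did not overlap, and its log2 fold change was 0.15 (limma adjusted p = 0.375, and 1.63e-06 with the block). Of the 6 listed, 5 were higher and 1, ENSA, was lower. ENSA stood at 3503, 3536 and 3692 counts untreated and at 3400, 3387 and 3406 with isoproterenol, and the groups did not overlap. The log2 fold change of ENSA was -0.074 (limma adjusted p = 0.717, and 0.163 with the block), so it was not called.

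The 6 genes for enzymes and proteins that modify, bind or degrade the subunits all had log2 fold changes below 0, with a median of -0.044. Only 2 of the 6 were lower in all 3 pairs, where 17.6% of all genes were, and in the others the pairs did not share a direction. None was called in either fit, nor was any unadjusted p under 0.05. PRKX, a kinase related to the catalytic subunits, had a log2 fold change of 0.13 with a limma adjusted p of 0.629, and 0.117 with the block. PRKACG was not analysed here. Over these effector, phosphatase inhibitor, processing and kinase lists together, 23 genes were tested, 11 were higher, none was called without the block (0.0165% of all genes), where the unadjusted p of 4 was under 0.05 (7.68% of all genes), and 2 rose with it (2.82% of all genes).

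**Figure D4:**
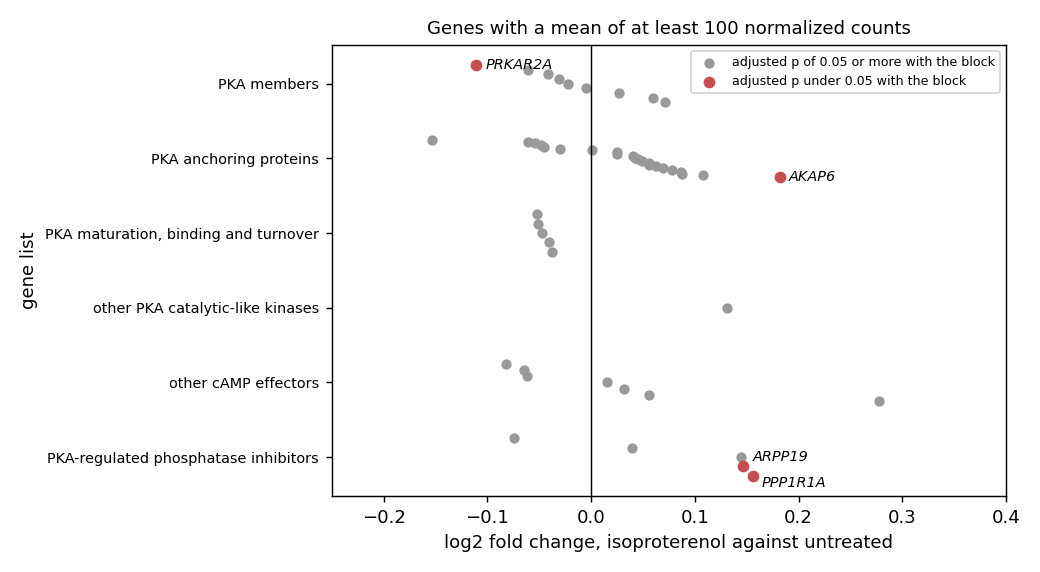
Log2 fold changes of the PKA genes and of the partner lists, 1 point a gene, for genes that averaged 100 normalized counts or more (9 members, 22 AKAPs, 5 processing genes, 1 kinase, 7 cAMP effectors and 5 phosphatase inhibitors). Red points, named, had a limma adjusted p under 0.05 with the replicate block: PRKAR2A below 0, and AKAP6, ARPP19 and PPP1R1A above it.

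For the most abundant catalytic, regulatory and inhibitor gene per kilobase of exonic length, the genes with the most similar profiles over the 6 samples were sought. They were found among 11586 genes averaging 100 counts or more, by the root mean square difference of centred log2 values. With the longest transcript the most abundant regulatory gene was PRKAR2B instead of PRKAR1B, and its profile was not searched. For PRKACB, whose own SD over the samples was 0.030, they were OCRL, PYGO2 and DNAJC5, at 0.0072, 0.0075 and 0.0086. For PRKAR1B (SD 0.043) they were HSF1, WRNIP1 and CAMK2N1, at 0.012, 0.013 and 0.013. For PKIA (SD 0.095) they were TCAIM, GRPEL2 and BNIP3L, at 0.014, 0.016 and 0.017. These likenesses describe 6 samples and were not tested.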

How the data were processed

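The authors selected poly(A) RNA with a directional library kit, checked reads with FastQC, aligned them to GRCh38 with STAR and counted them per gene with featureCounts (Subread). Tool versions and the strand setting are not given in the sources used here. The deposited signal is the read count of a gene divided by 1 DESeq2 size factor per sample (0.867 to 1.03). Each value above 0 was a whole multiple of a step per sample, within 0.01, and whole reads were recovered for 100% of them. Size factors may have been set with samples not analysed here.

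A gene was tested if its recovered reads exceeded 5 in 4 or more samples, which kept 18130 and removed 1693. log2(normalized count + 1) was fitted with limma 3.58.1 (R 4.3.3, intensity trend, robust moderation), two-sided, with Benjamini-Hochberg adjustment over all genes tested, after the code was tested on simulated data. Fold changes are on that scale. edgeR 4.0.16 (quasi-likelihood) and DESeq2 1.42.0 (Wald) were run on recovered reads as alternatives, besides other scalings, filters, pseudocounts and left-out samples.

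Groups and replicate numbers came from the sample titles. Pairing was checked on 11587 genes averaging 100 counts or more. After each group's mean was subtracted, samples 1, 2 and 3 of the groups correlated at 0.269, 0.493 and 0.388, and the mean of 0.383 compared with -0.195 to 0.163 for the other 5 matchings. The matchings use the same centred values, so the other 5 are not an independent reference. As each pair exceeded 0.1, samples of the same number were treated as pairs, and this pairing comes from the data rather than the labels. Replicates were distinct libraries (chi-square per degree of freedom 3.44 to 5.73 within groups).

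Named genes are the 9 members, RBM12, genes of the other lists past an adjusted p of 0.05 without or with the block, genes of the lists not analysed here, and the 3 profiles most like 1 gene of each role. Other names were chosen after their values were seen. 1 gene of the partner lists is not reported here and was left out of their counts. The members and lists were chosen with earlier results of these data known. Positions, lengths and overlaps came from GENCODE release 44, which held 19742 of the 19823 identifiers, and promoter sequences from RefSeq. The authors' build is GRCh38, and their annotation release is not given in the sources used here.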

Additional observations from a re-analysis of the deposited data

How the results depend on the processing

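Over all genes, 3 passed without the replicate block in limma, 21 with DESeq2, and between 2 and 67 when 1 sample was left out (67 without isoproterenol replicate 2, 7 without untreated replicate 2, 7 without isoproterenol replicate 1 and 6 without isoproterenol replicate 3). With the replicate block the counts were 885 (limma), 977 (edgeR) and 143 (DESeq2, whose missing adjusted p-values stayed missing). Of the PKA members, 0 passed without the block and with any 1 sample left out, and 1 (PRKAR2A) passed with the block in limma and edgeR. Of the AKAPs, 0 passed without the block and with any 1 sample left out, and 1 (AKAP6) with the block in each tool. Of the other lists, 0 to 1 passed with 1 sample left out (PPP1R1A without isoproterenol replicate 2), and 2 (PPP1R1A and ARPP19) with the block in each tool. The block changed no other call among these genes. Leaving out a pair from the blocked limma fit was added after seeing the data: without pairs 1, 2 and 3 the fit called 531, 665 and 456 genes in all, 1, 0 and 0 members, 2, 1 and 1 AKAPs (the further one without pair 1 was AKAP8L, named after its values were seen) and 2 of the other lists each time.

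Directions of small changes depended on single samples. With 1 sample left out, log2 fold changes ran from -0.094 to 0.033 for PKIA, -0.049 to 0.087 for PKIB, -0.060 to 0.011 for PKIG, -0.045 to 0.0012 for PRKACB and -0.063 to 0.032 for PRKAR1A. In the blocked fit without pair 1, PRKAR1A was at 0.0043, and without pair 3 PRKACB was at 0.0070, PRKAR1A at 0.0053 and PKIG at 0.013. PRKACA (0.053 to 0.095), PRKAR1B (0.038 to 0.078), PRKAR2A (-0.13 to -0.074) and PRKAR2B (-0.093 to -0.030) kept their direction with each sample left out. The log2 difference of the catalytic to regulatory ratio ran from -0.013 to 0.041 and that of the inhibitor to catalytic ratio from -0.076 to 0.0055. Other scalings, filters and pseudocounts turned no member's direction. With 3 samples a group and no block, the 95% interval of the log2 fold change included 0 for 8 of the 9 members and excluded it for PRKAR2A.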
